A study of Mus musculus with 24 samples.

Results

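The difference between Chek2 knock-out (KO) and Chek2-WT MC38 tumours in their response to anti-PD-1 was measured across genes, as the anti-PD-1 minus PBS difference in KO tumours minus the same difference in WT tumours, on log2(FPKM + 1). FPKM is a read count scaled to transcript length and sequencing depth. The contrast used all 12 MC38 libraries of the 24 in the series, the other 12 being B16 melanoma tumours of the same design. The 4 MC38 groups had 3 libraries each: CHEK2-knock out cells with anti-PD-1, CHEK2-knock out cells with PBS, parental CHEK2-WT cells with anti-PD-1, and parental CHEK2-WT cells with PBS, the saline vehicle. MC38 is a mouse colon carcinoma line that is commonly grown as a tumour in mice with a working immune system. The labels give neither the strain, sex and age of the mice, the dose and time of treatment, nor whether the knock-out cells were 1 clone, and no label ties a library to its own mouse, so p-values measure the spread between libraries, which may be technical. Whole tumour tissue was sequenced. The genotype is given as that of the cells, so each library also holds host cells whose Chek2 the labels do not describe as altered.

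Chek2 encodes CHK2, a kinase that ATM activates at broken DNA and that in turn acts on p53 and the cell cycle. PD-1, encoded by Pdcd1, is an inhibitory receptor of activated T cells, and its ligand PD-L1, encoded by Cd274, is induced by interferon-gamma on tumour and myeloid cells. An antibody against PD-1 blocks that inhibition, and tumours that respond to it usually gain CD8 T cells, interferon-gamma and the genes that interferon-gamma induces, among them the chemokine Cxcl9 and the genes of antigen presentation. A positive interaction means that a gene's level moved further upward with anti-PD-1 in KO than in WT tumours. It can arise from any of the 4 groups, so the value in each library is given beside it.

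In the 12 MC38 libraries the deposited FPKM summed to 310868 to 339409, and depth, estimated from the steps of low values, was 1.35e+07 to 2.24e+07 full-read equivalents. Replicates of a group correlated across genes with Pearson's r of 0.969 to 0.984, and no pair of libraries shared over 0.0243% of its nonzero values. Chek2 itself had 3.23, 3.06 and 3.37 FPKM in the KO anti-PD-1 libraries, 2.197, 2.40004 and 1.92 in the KO PBS libraries, 5.72, 5.59 and 5.01 in the WT anti-PD-1 libraries and 6.14, 5.15 and 4.61 in the WT PBS libraries. All 6 KO libraries lay below all 6 WT libraries, and the interaction of Chek2 did not pass the test (0.38 ± 0.14, adjusted p = 0.167). In the same limma fit its response to anti-PD-1 was 0.41 ± 0.10 in KO, adjusted p = 0.0255, and 0.04 ± 0.10 in WT, adjusted p = 0.897. The colon transcription factor gene Cdx2 was at 0 in all 12 libraries and Vil1, a gene of intestinal epithelium, reached at most 0.0944 FPKM. The intestinal genes Cdx1, Krt20 and Muc2 were low as well. Other epithelial genes were expressed: Epcam reached 5.59 FPKM, Krt8 9.44 and Krt19 16.5, and Cdh1 was above 0 in all 12 libraries. The tissue of origin of the line was not tested.

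Tested were the 14209 genes that reached 1 FPKM in 3 or more MC38 libraries. Of these, 346 (2.44%) were called for the interaction, at a limma adjusted p under 0.05. The interaction was higher in KO for 257 of them (1.81%) and lower for 89 (0.626%), while the median over all tested genes was -0.03. Among the called genes 174 had an interaction of at least 1 in size, 154 of them higher and 20 lower. The number called depended strongly on single libraries. It was 308, 48 and 92 without KO anti-PD-1 replicate 1, 2 or 3, and 725, 52 and 137 without KO PBS replicate 1, 2 or 3. It was 110, 85 and 158 without WT anti-PD-1 replicate 1, 2 or 3, and 60, 90 and 117 without WT PBS replicate 1, 2 or 3. In every one of these 12 fits each of the 346 genes that was tested kept its sign, and 36 genes were called in all 12, 27 of them higher and 9 lower. These fits reuse the libraries that gave the 346 calls, so the kept signs are no independent test.

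**Figure D1:**
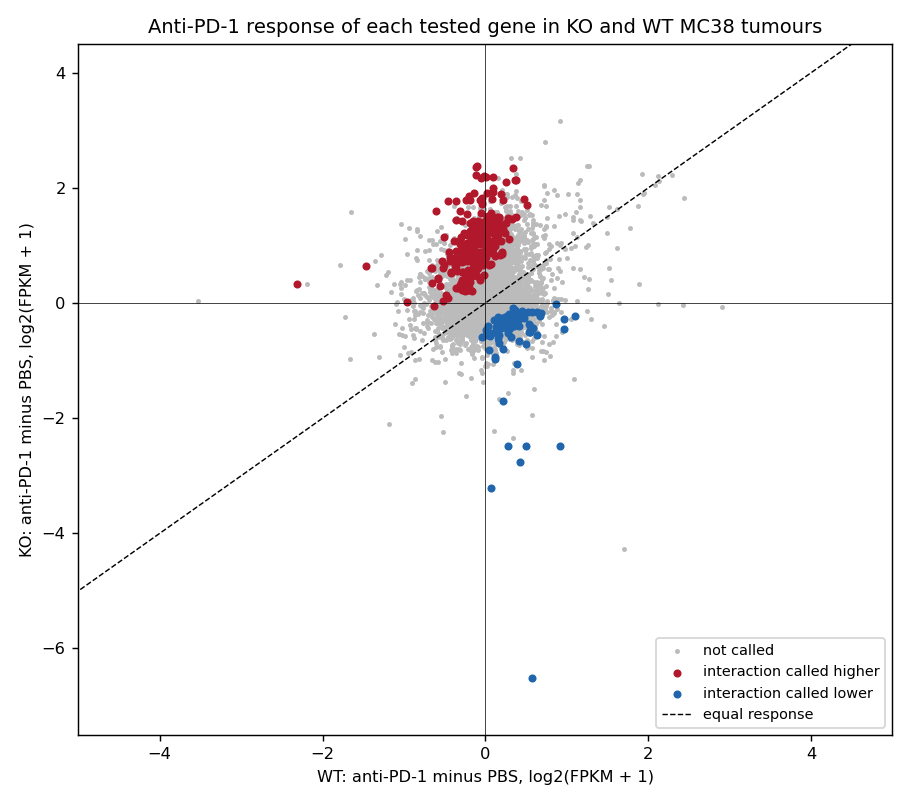
Each point is 1 of the 14209 tested genes, with the anti-PD-1 minus PBS difference in KO tumours on the y axis and in WT tumours on the x axis, both on log2(FPKM + 1). Genes called higher (red, 257) lie above the dashed line of equal response, mostly at WT responses close to 0, and genes called lower (blue, 89) lie below it; the lowest point, at -6.51 in KO, is the small RNA gene Gm47299.

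**Figure D2:**
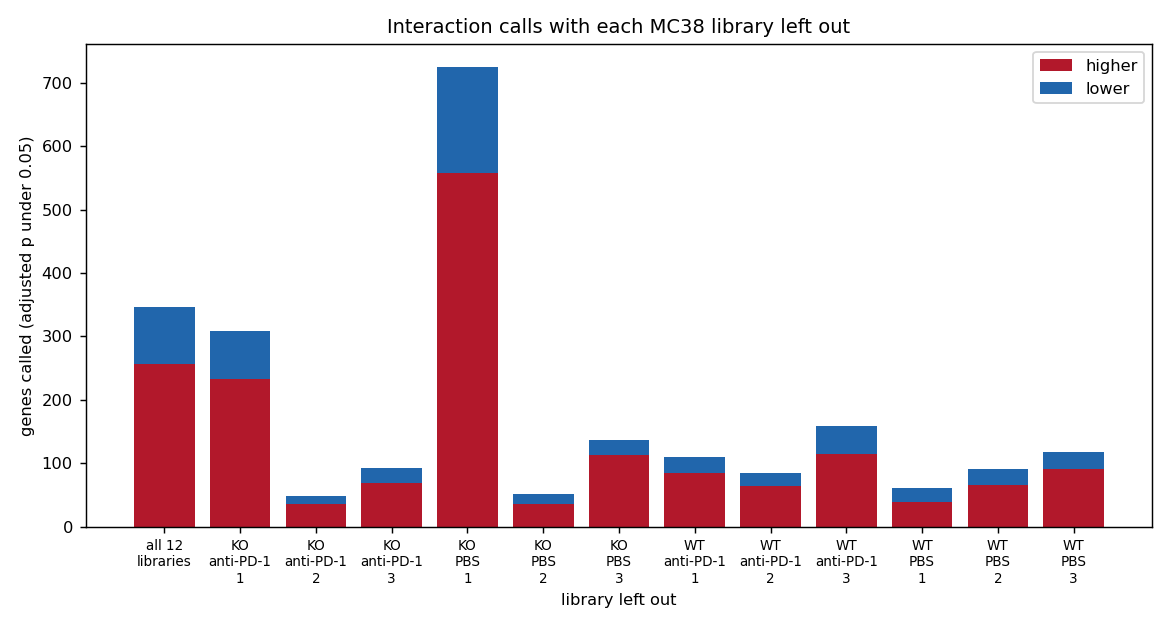
Bars give the number of genes called for the interaction, higher (red) and lower (blue), with all 12 libraries and with each library left out. The total runs from 48 without KO anti-PD-1 replicate 2 to 725 without KO PBS replicate 1, beside 346 with all libraries.

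The genes called higher were mostly genes at a low level in the KO PBS tumours. That group had the lowest mean of the 4 for 247 of the 257, and WT anti-PD-1 for the other 10. The highest mean lay in KO anti-PD-1 for 183 of them, in WT PBS for 68 and in WT anti-PD-1 for 6. All 3 KO PBS libraries lay below the other 9 for 200 of the 257 genes, against 5.35% of all tested genes. All 3 KO anti-PD-1 libraries lay above the other 9 for 98 of them, against 4.45% of all tested genes. For the WT groups, 20 of the 257 had all 3 WT PBS libraries above the rest (2.83% of all tested genes) and 2 had all 3 WT anti-PD-1 libraries below the rest (1.22%).

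For the genes called lower, KO PBS was the high group or WT PBS the low one in most cases. The highest mean of the 4 lay in KO PBS for 62 of the 89 and in WT anti-PD-1 for 27, and the lowest lay in WT PBS for 55 and in KO anti-PD-1 for 34. All 3 KO PBS libraries lay above the other 9 for 45 of the 89 genes, against 5.15% of all tested genes, and all 3 WT PBS libraries lay below the other 9 for 28, against 3.12%. All 3 KO anti-PD-1 libraries lay below the rest for 16 (4.11% of all tested genes), and all 3 WT anti-PD-1 libraries above the rest for 4 (1.84%). These positions and the interaction come from the same libraries, so they describe the calls and do not test them.

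T cell genes were among the higher calls. Il2rb, the receptor chain through which T and NK cells take up IL-2 and IL-15 signals (mm10 chr15:78479256-78495271), had 6.23, 8.46 and 6.83 FPKM in the KO anti-PD-1 libraries, 1.702, 1.22 and 1.19 in the KO PBS libraries, 7.43, 5.58 and 6.52 in the WT anti-PD-1 libraries and 7.19, 7.68 and 7.62 in the WT PBS libraries. The 3 KO PBS libraries lay far below the 9 others, which overlapped among themselves. Its response to anti-PD-1 was 1.78 ± 0.12 in KO and -0.18 ± 0.12 in WT (SE, n = 3 libraries a group), which gave an interaction of 1.97 ± 0.18, adjusted p = 0.00184. Il2rb was called in all 12 leave-one-out fits, at 1.86 to 2.06, and in the 13 other alternatives.

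The T cell receptor and CD3 complex carries antigen recognition into the cell. Of its 12 tested genes 5 were called higher (1.81% of all tested genes) and 0 lower. The median interaction was 1.31, and the members' median responses to anti-PD-1, taken separately, were 1.22 in KO and -0.05 in WT. The CD3 chain gene Cd3d had 2.45, 3.42 and 2.203 FPKM in the KO anti-PD-1 libraries, 0.275, 0.392 and 0.205 in the KO PBS libraries, 3.45, 2.97 and 3.21 in the WT anti-PD-1 libraries and 3.54, 3.13 and 2.71 in the WT PBS libraries. Its KO PBS values stood apart below the rest, and the interaction was 1.47 ± 0.18, adjusted p = 0.00872. Cd3g, the neighbouring CD3 chain gene, had an interaction of 1.73 ± 0.22, adjusted p = 0.00912, and the receptor constant-region genes Trac, Trbc1 and Trbc2 had 2.49, 2.22 and 2.06. Cd3e missed the threshold at 1.04 ± 0.24, adjusted p = 0.0509, and the CD4 co-receptor gene Cd4 had 0.88 ± 0.28, adjusted p = 0.124. Over the 12 leave-one-out fits between 4 and 6 of these genes were called. In bulk tumour RNA, fewer cells of a type and less RNA per cell cannot be told apart, which holds for every cell type gene named here.

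Among genes of CD8 T cells and their killing machinery, 8 of 11 tested were called higher (1.81% of all tested genes) and 0 lower. The median interaction was 1.75, beside median responses of 1.79 in KO and 0.09 in WT. Cd8a, which encodes a chain of the CD8 co-receptor, had 6.06, 6.94 and 5.11 FPKM in the KO anti-PD-1 libraries, 1.21, 0.585 and 0.775 in the KO PBS libraries, 6.22, 6.36 and 5.92 in the WT anti-PD-1 libraries and 7.06, 6.43 and 3.99 in the WT PBS libraries. The KO PBS libraries were below all others and the other 3 groups overlapped, at an interaction of 1.83 ± 0.25, adjusted p = 0.0118. Its partner chain Cd8b1 had 1.57 ± 0.20, adjusted p = 0.00912, and Nkg7, a protein of cytotoxic granules, had 12.2, 16.4 and 9.95 FPKM in the KO anti-PD-1 libraries, 2.35, 2.48 and 1.304 in the KO PBS libraries, 12.7, 10.1 and 12.4 in the WT anti-PD-1 libraries and 10.1, 13.7 and 9.37 in the WT PBS libraries, for an interaction of 2.09 ± 0.29, adjusted p = 0.0118.

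Ifng, the gene of interferon-gamma, had 2.57, 4.99 and 3.83 FPKM in the KO anti-PD-1 libraries, 0.977, 0.335 and 0.103 in the KO PBS libraries, 4.13, 2.07 and 4.24 in the WT anti-PD-1 libraries and 3.78, 2.84 and 3.93 in the WT PBS libraries. KO PBS replicate 1 was the highest of its group, yet still below the other 9 libraries. The interaction was 1.76 ± 0.38, adjusted p = 0.0414. It was called in 2 of the 12 leave-one-out fits, with values of 1.51 to 2.00. The granzyme gene Gzma was called higher (1.91 ± 0.34, adjusted p = 0.0273), whereas Gzmb, the main granzyme of activated CD8 T cells, had 18.7, 21.2 and 17.2 FPKM in the KO anti-PD-1 libraries, 6.71, 4.31 and 2.31 in the KO PBS libraries, 22.4, 20.2 and 33.97 in the WT anti-PD-1 libraries and 22.9, 14.7 and 29.4 in the WT PBS libraries and was not called (1.75 ± 0.44, adjusted p = 0.0619). Perforin, encoded by Prf1, opens the target cell membrane to granzymes and had an interaction of 1.48 ± 0.34, adjusted p = 0.0501. Without WT PBS replicate 1 the list had 3 members called, without KO PBS replicate 1 it had 10, and it had 0 without KO anti-PD-1 replicate 2 and WT anti-PD-1 replicate 2, the libraries richest in skeletal muscle genes.

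**Figure D3:**
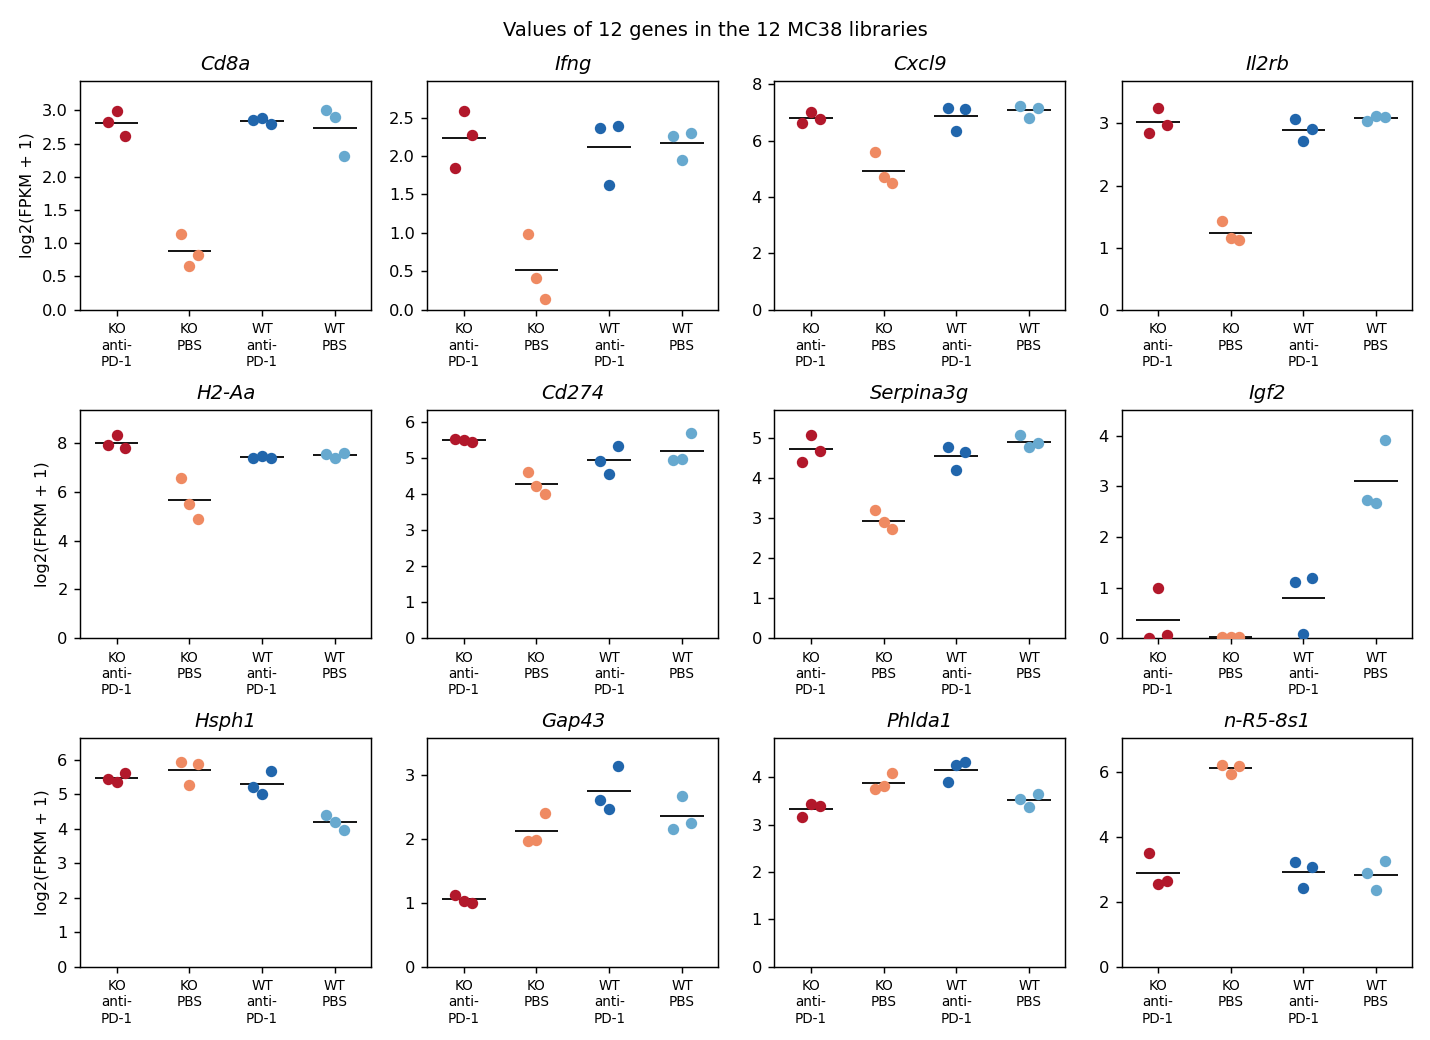
Points are single MC38 libraries and lines are group means of log2(FPKM + 1), with KO anti-PD-1, KO PBS, WT anti-PD-1 and WT PBS from left to right in each panel. For the first 7 genes the KO PBS libraries are the lowest group, for Igf2 the WT PBS libraries stand above the rest, for Hsph1 the WT PBS libraries are the lowest, for Gap43 the KO anti-PD-1 libraries are the lowest, and for n-R5-8s1 the KO PBS libraries stand above the rest.

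NK cells kill cells that lack MHC class I. Of 9 tested NK receptor genes 4 were called higher (1.81% of all tested genes) and 0 lower, with a median of 1.40. Il2rb, given above with the T cell genes, is also in this list and is 1 of the 4. Without WT PBS replicate 1 the 4 calls became 1, that of Il2rb. Klrd1, the CD94 chain shared by activating and inhibitory receptors, had 6.93, 11.6 and 5.09 FPKM in the KO anti-PD-1 libraries, 1.996, 0.451 and 0.405 in the KO PBS libraries, 8.67, 5.38 and 7.47 in the WT anti-PD-1 libraries and 6.705, 9.16 and 5.95 in the WT PBS libraries. All 3 KO PBS libraries lay below the other 9, with replicate 1 above its group mates, and the interaction, 2.23 ± 0.46, adjusted p = 0.0376, was called in 2 of the 12 leave-one-out fits. The activating receptor gene Klrk1 (NKG2D) had 1.40 ± 0.24, adjusted p = 0.0247 and the CD94 partner Klrc1 had 1.85 ± 0.32, adjusted p = 0.027. These genes belong to a family of close copies, which read assignment could mix.

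Inhibitory checkpoint genes had 5 of 9 tested members called higher (1.81% of all tested genes) and 0 lower, with a median of 1.17. Ctla4, which competes with CD28 for its ligands, had 2.31, 1.84 and 1.87 FPKM in the KO anti-PD-1 libraries, 0.409, 0.162 and 0.211 in the KO PBS libraries, 2.31, 1.01 and 1.55 in the WT anti-PD-1 libraries and 2.103, 2.09 and 1.596 in the WT PBS libraries. KO PBS was again the low group, and the interaction was 1.44 ± 0.24, adjusted p = 0.0228. Cd274 (PD-L1) had 44.98, 43.6 and 42.5 FPKM in the KO anti-PD-1 libraries, 23.2, 17.5 and 14.9 in the KO PBS libraries, 28.8, 22.5 and 39.2 in the WT anti-PD-1 libraries and 29.5, 30.03 and 50.1 in the WT PBS libraries. The KO PBS libraries overlapped WT anti-PD-1 replicate 2, at 22.5 FPKM, and all 3 KO anti-PD-1 libraries lay above all 3 WT anti-PD-1 libraries. The interaction of Cd274, 1.48 ± 0.33, adjusted p = 0.0463, was called in 2 of the 12 leave-one-out fits.

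Pdcd1, the gene of the antibody's own target, had 3.88, 4.93 and 2.798 FPKM in the KO anti-PD-1 libraries, 0.713, 0.651 and 0.713 in the KO PBS libraries, 3.46, 3.25 and 3.89 in the WT anti-PD-1 libraries and 3.11, 2.98 and 1.46 in the WT PBS libraries. Its KO PBS libraries were also the lowest, and WT PBS replicate 3, at 1.46 FPKM, was the lowest of the other 9. The interaction, 1.10 ± 0.28, adjusted p = 0.0626, was not called. Entpd1 (CD39), an ectoenzyme that removes ATP, had 1.48 ± 0.28, adjusted p = 0.0308, Lag3 had 1.16 ± 0.25, adjusted p = 0.0398 and Havcr2 (TIM-3) had 1.08 ± 0.25, adjusted p = 0.0484. Costimulatory receptors and regulatory T cell genes had 3 of 11 called higher (1.81% of all tested genes), with a median of 0.91. The 3 were Cd86, a CD28 ligand on antigen-presenting cells (1.51), Icos (1.21) and Tnfrsf4 (OX40, 0.95). Foxp3, the defining factor of regulatory T cells, was under 0.5 FPKM in all 12 libraries and was not tested. Leaving out WT PBS replicate 1 left 0 members of either list called.

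Chemokines that attract T cells had 2 of 11 tested members called higher (1.81% of all tested genes) and a median of 1.12. The 2 calls became 0 without WT PBS replicate 1 and 6 without KO PBS replicate 1. Cxcl9, a CXCR3 ligand induced by interferon-gamma, had 96.7, 127 and 107 FPKM in the KO anti-PD-1 libraries, 46.97, 25.1 and 21.3 in the KO PBS libraries, 143, 79.6 and 138 in the WT anti-PD-1 libraries and 149.7, 111 and 143 in the WT PBS libraries. The 3 KO PBS libraries lay below the rest and the other groups overlapped, for an interaction of 2.06 ± 0.40, adjusted p = 0.0332 that was called in 3 of the 12 leave-one-out fits. Its sister Cxcl10 was at 53.9 to 81.1 FPKM in KO PBS and was not called (1.12 ± 0.32, adjusted p = 0.0891). The T cell and myeloid chemokine Ccl3 had 1.14 ± 0.24, adjusted p = 0.0409. None of 10 monocyte chemokine and Csf1 genes was called (median 0.73). Ccl2, which recruits monocytes, had 80.99, 89.2 and 86.5 FPKM in the KO anti-PD-1 libraries, 70.8, 68.5 and 50.9 in the KO PBS libraries, 287, 202 and 250.4 in the WT anti-PD-1 libraries and 228, 239 and 211 in the WT PBS libraries. It was low in KO with and without anti-PD-1, with an interaction of 0.33 ± 0.20, adjusted p = 0.4.

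Interferon-gamma signalling and response genes had 10 of 28 tested members called higher (1.81% of all tested genes) and 0 lower. The median was 1.14, beside median responses of 0.87 in KO and -0.16 in WT. The interferon-induced GTPase gene Tgtp1 had 117, 121 and 90.1 FPKM in the KO anti-PD-1 libraries, 47.99, 26.1 and 22.7 in the KO PBS libraries, 67.1, 42.7 and 78.9 in the WT anti-PD-1 libraries and 77.1, 61.8 and 78.3 in the WT PBS libraries. WT anti-PD-1 replicate 2, at 42.7 FPKM, lay below KO PBS replicate 1, at 48.0, and the other libraries lay above KO PBS. The interaction was 2.03 ± 0.39, adjusted p = 0.0324. Tgtp2, a near copy with which Tgtp1 may share reads, had 1.77 ± 0.34, adjusted p = 0.0314.

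Serpina3g, a protease inhibitor gene of activated T cells and interferon-treated cells, had 20.3, 32.8 and 24.5 FPKM in the KO anti-PD-1 libraries, 8.17, 6.48 and 5.64 in the KO PBS libraries, 26.3, 17.6 and 24.2 in the WT anti-PD-1 libraries and 32.9, 26.5 and 28.5 in the WT PBS libraries. KO PBS stood apart below the rest and the interaction of 2.14 ± 0.27, adjusted p = 0.00872 was called in all 12 leave-one-out fits. Gbp4 had 1.64 ± 0.32, adjusted p = 0.0332, Gbp5 had 1.25 ± 0.23, adjusted p = 0.0308, and Ido1, the tryptophan-degrading enzyme, had 1.58 ± 0.31, adjusted p = 0.0346. Members without a call included Gbp2 (1.24 ± 0.32, adjusted p = 0.0666) and Irf1 (0.20 ± 0.57, adjusted p = 0.884). The 10 calls became 1 without WT PBS replicate 1 and 16 without KO PBS replicate 1, while the list's median stayed at 0.92 to 1.27 over the 12 fits. Of 25 type I interferon response genes, which answer to interferon-alpha and -beta, Ifit2 alone was called, beside 1.81% of all tested genes called higher. Its interaction of 1.27 ± 0.26, adjusted p = 0.0359, was called in 3 of the 12 leave-one-out fits. The type I list's median was 0.64, and its calls ran from 0 without WT PBS replicate 1 to 6 without WT anti-PD-1 replicate 3.

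Promoters of the named genes called in either direction were read for 2 DNA elements through which interferons induce genes. These were the cores of the gamma-activated site and the interferon-stimulated element. The letters searched, on either strand, were TTCNNNGAA for the gamma-activated site and a pair of GAAA with 2 bases of any kind between them for the interferon-stimulated element, in windows from 250 bases before to 50 bases after each RefSeq gene start (GRCm38.p6). Motif matches of these letters may overlap. These stretches end at or before the gene start, are written 5′ to 3′ on the gene's strand and have the matched core in capitals, in the reverse complement for H2-T23; they are shown because each belongs to a gene called higher and holds such a core. Of the 37 named called genes with a window, which are not all interferon or T cell genes, 11 held either core, Igf2 and Tgfbi among them. Cxcl9 and Cd274 were among those that held none.
Tgtp1: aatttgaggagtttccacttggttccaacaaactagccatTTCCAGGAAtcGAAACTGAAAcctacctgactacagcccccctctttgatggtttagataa
Serpina3g: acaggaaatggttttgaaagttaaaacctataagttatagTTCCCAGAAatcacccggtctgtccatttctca
Nkg7: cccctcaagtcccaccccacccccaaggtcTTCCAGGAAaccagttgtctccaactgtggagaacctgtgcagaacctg
Cd3d: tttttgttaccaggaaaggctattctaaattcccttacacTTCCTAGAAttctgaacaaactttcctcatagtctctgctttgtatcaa
H2-T23: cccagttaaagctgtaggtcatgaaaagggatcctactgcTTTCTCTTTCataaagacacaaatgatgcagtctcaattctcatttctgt

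The Tgtp1 stretch lies at chr11:48992274-48992374 on the minus strand, with the gamma-activated core starting 88 bases and the interferon-stimulated core 77 bases before the gene start. The Serpina3g stretch is at chr12:104236074-104236146 on the plus strand, its core 33 bases before the start, and that of Nkg7 at chr7:43436888-43436966 on the plus strand, its core 220 bases before the start. For Cd3d it is chr9:44981549-44981637 on the plus strand, the core 197 bases before the start, and for H2-T23 it is chr17:36032776-36032865 on the minus strand, the core 124 bases before the start. Of the 257 genes called higher 189 had a window in the table, 232 windows in all, and 12.9% of these windows held the gamma-activated core, against 6.87% of the 11996 windows of 9459 tested genes. The interferon-stimulated core was in 9.48% of the windows of genes called higher and 3.33% of all windows. Among 70 windows of 54 genes called lower the shares were 1.43% and 2.86%. These matches describe the letters of the windows and were not tested.

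MHC class II genes, which present peptides to CD4 T cells, had 6 of 8 tested members called higher (1.81% of all tested genes). They had the highest list median, 1.79, beside median responses of 1.82 in KO and -0.05 in WT. H2-Aa, the alpha chain of I-A, had 244, 329 and 223 FPKM in the KO anti-PD-1 libraries, 95.8, 44.1 and 28.8 in the KO PBS libraries, 169, 179 and 167 in the WT anti-PD-1 libraries and 190.3, 168 and 195 in the WT PBS libraries. KO PBS was the lowest group, with replicate 1 well above its group mates, and all 3 KO anti-PD-1 libraries lay above all 6 WT libraries. The interaction, 2.47 ± 0.46, adjusted p = 0.0308, was called in 3 of the 12 leave-one-out fits. H2-Eb1 had 2.35 ± 0.46, adjusted p = 0.0332 and the invariant chain gene Cd74 had 2.18 ± 0.44, adjusted p = 0.0354. The peptide-exchange genes H2-DMb1 and H2-DMb2, close copies of each other, had 1.56 ± 0.21, adjusted p = 0.0118 and 1.26 ± 0.18, adjusted p = 0.0134. Ciita, the master regulator of class II genes, had 4.01, 4.98 and 3.23 FPKM in the KO anti-PD-1 libraries, 1.45, 0.347 and 0.803 in the KO PBS libraries, 2.95, 3.11 and 2.23 in the WT anti-PD-1 libraries and 2.76, 2.46 and 2.897 in the WT PBS libraries, which gave 1.45 ± 0.28, adjusted p = 0.0332.

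MHC class I presentation genes had 4 of 19 tested members called higher (1.81% of all tested genes) and a median of 0.45. Nlrc5, the regulator of class I genes, had 23.8, 24.4 and 24.6 FPKM in the KO anti-PD-1 libraries, 15.6, 14.2 and 12.5 in the KO PBS libraries, 21.6, 22.2 and 23.1 in the WT anti-PD-1 libraries and 21.1, 23.4 and 24.7 in the WT PBS libraries. The KO PBS values of 12.5 to 15.6 FPKM lay below all others, which ran from 21.1 to 24.7, and the interaction was 0.79 ± 0.12, adjusted p = 0.0144. The non-classical class I gene H2-T23 had 1.38 ± 0.25, adjusted p = 0.03, and the classical H2-K1 had 0.65 ± 0.15, adjusted p = 0.0463. B2m, the light chain, had 0.54 ± 0.18, adjusted p = 0.141 without a call. Class I genes are close copies, so their reads may be shared. The class II calls were 2 without WT PBS replicate 1 and 7 without KO PBS replicate 1, and the class I calls ran from 1 to 5 over the leave-one-out fits.

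Macrophage and monocyte genes had 2 of 15 tested members called higher (1.81% of all tested genes), with a median of 1.02. Ly6c2, a surface marker of inflammatory monocytes with a close copy in the genome, had 5.998, 14.5 and 7.43 FPKM in the KO anti-PD-1 libraries, 3.23, 2.08 and 1.57 in the KO PBS libraries, 8.39, 3.31 and 4.56 in the WT anti-PD-1 libraries and 9.99, 8.204 and 6.87 in the WT PBS libraries. KO anti-PD-1 replicate 2 was the highest library, WT anti-PD-1 replicate 2 lay just above KO PBS replicate 1, and the interaction was 2.20 ± 0.47, adjusted p = 0.0409. Trem2, a lipid receptor of macrophages, had 0.96 ± 0.22, adjusted p = 0.0482, called in 2 of the 12 leave-one-out fits. The macrophage marker Adgre1 (F4/80) had 54.8, 65.4 and 64.7 FPKM in the KO anti-PD-1 libraries, 38.2, 21.4 and 11.05 in the KO PBS libraries, 45.8, 45.9 and 44.3 in the WT anti-PD-1 libraries and 37.8, 37.4 and 30.1 in the WT PBS libraries. KO PBS replicate 1 lay just above the highest WT PBS library, replicates 2 and 3 lay below every other library, and the interaction was 1.14 ± 0.44, adjusted p = 0.183. The summed FPKM of the macrophage list was 1094 to 1866 in KO anti-PD-1, 415 to 984 in KO PBS, 1256 to 1505 in WT anti-PD-1 and 1297 to 1639.9 in WT PBS libraries, with the highest KO PBS value in replicate 1.

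All 14 complement genes had positive interactions, beside 6328 of all 14209 tested genes. Their median was 1.24 and 0 were called. C1qa, a subunit of C1q made by macrophages, had 400.5, 462 and 409 FPKM in the KO anti-PD-1 libraries, 253, 175 and 88.97 in the KO PBS libraries, 314, 325 and 333 in the WT anti-PD-1 libraries and 328, 327 and 319 in the WT PBS libraries. KO PBS was low, with a wide spread between its libraries, and the interaction was 1.42 ± 0.39, adjusted p = 0.0756. Without KO PBS replicate 1, 6 complement genes and 7 macrophage genes were called. Of 5 Fc gamma receptors, which bind antibody, Fcgr2b was called (1.32 ± 0.26, adjusted p = 0.0346), and the activating receptor Fcgr4 had 2.09 ± 0.59, adjusted p = 0.0846. In other myeloid and cytokine lists single genes were called higher, beside 1.81% of all tested genes. Csf3r, the G-CSF receptor gene (1.32 ± 0.28, adjusted p = 0.0409), was the only call among 6 tested neutrophil genes, whose interactions ran from -0.39 to 1.32. The neutrophil gene Ly6g was at 0 in all 12 libraries. Xcr1, the receptor that marks cross-presenting dendritic cells (1.07 ± 0.22, adjusted p = 0.0387), was the only call among 6 tested dendritic cell genes. Among 9 tested inflammatory cytokine genes Tnf was called higher (1.20 ± 0.26, adjusted p = 0.0437) and Lif lower. Csf3r, Xcr1 and Tnf were each called in 2 of the 12 leave-one-out fits. None of 5 tested B and plasma cell genes was called (median 1.55). Fgl2, a fibrinogen-like protein of macrophages and T cells, had 87.6, 94.98 and 89.4 FPKM in the KO anti-PD-1 libraries, 32.3, 15.5 and 9.46 in the KO PBS libraries, 59.2, 61.99 and 62.4 in the WT anti-PD-1 libraries and 51.7, 46.1 and 47.5 in the WT PBS libraries and an interaction of 2.02 ± 0.42, adjusted p = 0.0389.

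**Figure D4:**
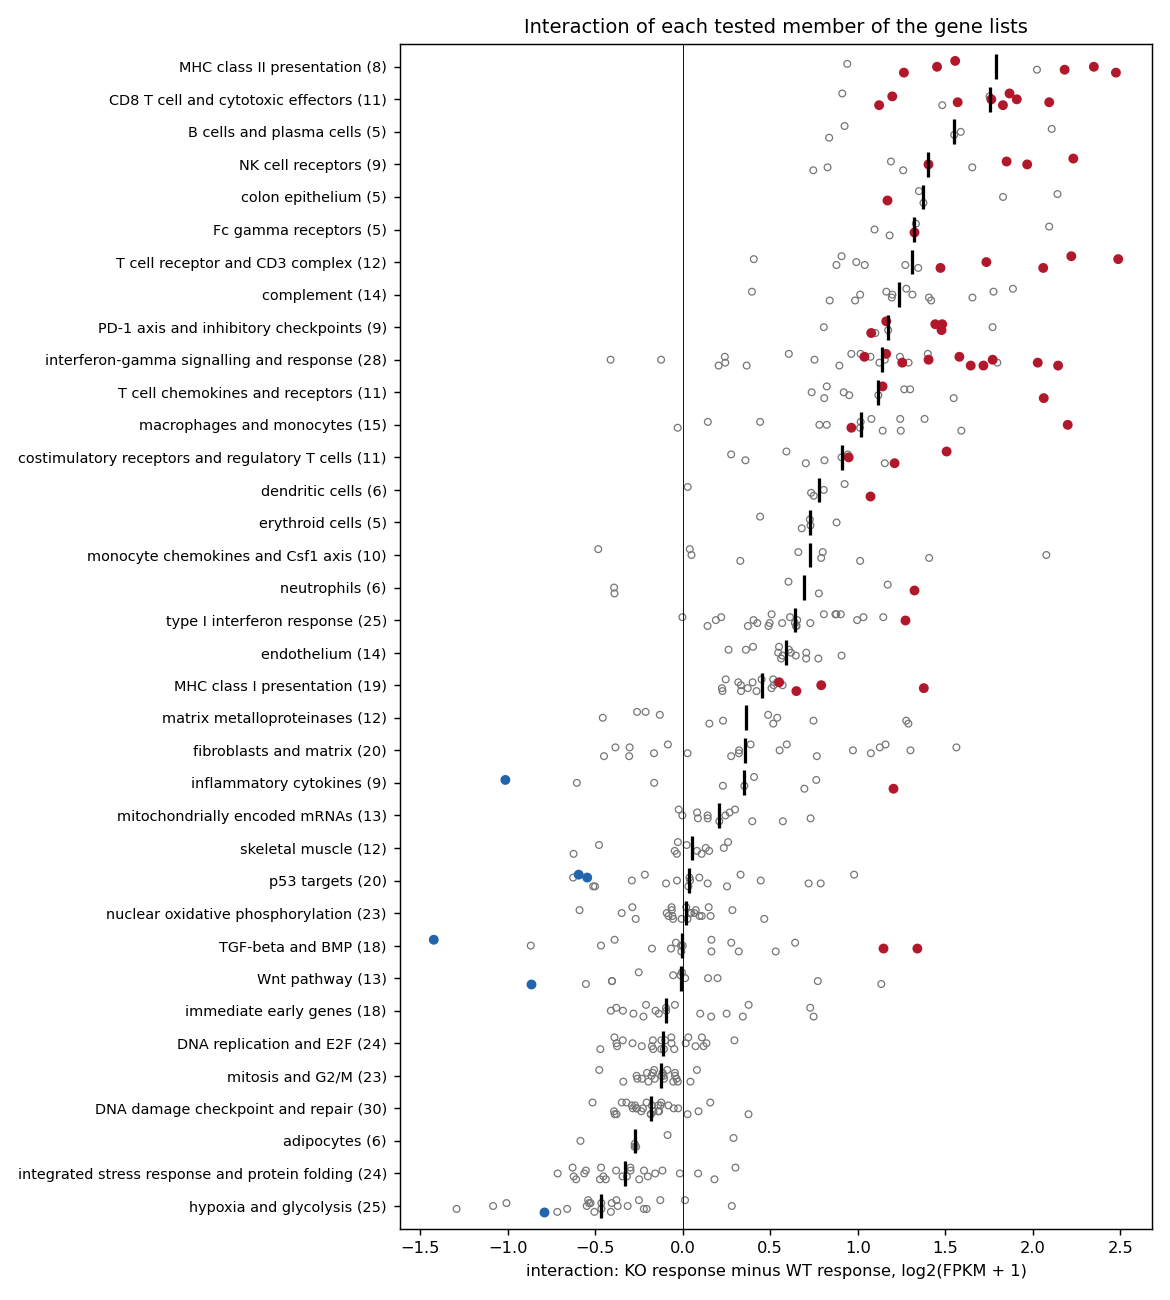
Each point is a tested member of a gene list, with the number tested in brackets, placed by its interaction on log2(FPKM + 1); filled points were called (red higher, blue lower) and vertical bars are list medians. Lists with at least 5 tested members are plotted; among them MHC class II has the highest median, 1.79, and hypoxia and glycolysis the lowest, -0.46, beside -0.03 for all 14209 tested genes.

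Igf2, an insulin-like growth factor of fetal tissue that some tumours re-express, had the largest positive interaction of the named genes, 2.65 ± 0.55, adjusted p = 0.0386. It had 0.00583, 0.999 and 0.0428 FPKM in the KO anti-PD-1 libraries, 0.0102, 0.0152 and 0.0191 in the KO PBS libraries, 1.16, 0.0611 and 1.29 in the WT anti-PD-1 libraries and 5.64, 5.41 and 14.1 in the WT PBS libraries. The 3 WT PBS libraries were above all others, KO PBS was near 0, and the response was 0.33 ± 0.39 in KO and -2.31 ± 0.39 in WT. The call was made in 2 of the 12 leave-one-out fits. An antisense gene, Igf2os, overlaps Igf2, and the strand of the counting is not given in the sources used here. Tgfbi, a matrix protein induced by TGF-beta, had 79.7, 91.7 and 95.3 FPKM in the KO anti-PD-1 libraries, 58.3, 50.3 and 39.6 in the KO PBS libraries, 51.6, 56.5 and 52.8 in the WT anti-PD-1 libraries and 69.4, 61.04 and 68.3 in the WT PBS libraries. The KO anti-PD-1 libraries were the highest and the WT PBS libraries second, and the interaction of 1.15 ± 0.17, adjusted p = 0.0181 was called in all 12 leave-one-out fits. Cdh1 (E-cadherin) had 1.19, 2.45 and 1.72 FPKM in the KO anti-PD-1 libraries, 0.71, 0.616 and 0.899 in the KO PBS libraries, 1.65, 1.38 and 1.07 in the WT anti-PD-1 libraries and 1.804, 3.01 and 2.36 in the WT PBS libraries. KO PBS was the lowest group, the other 3 overlapped, and the interaction, 1.17 ± 0.26, adjusted p = 0.0439, was called in 2 of the 12 leave-one-out fits. Other epithelial genes, Epcam and Krt8, were highest in KO anti-PD-1 replicate 2, at 5.59 and 9.44 FPKM, and were not called.

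Among the genes called lower, the heat-shock protein gene Hsph1 (HSP110) had 42.7, 39.9 and 47.7 FPKM in the KO anti-PD-1 libraries, 60.1, 37.5 and 58.002 in the KO PBS libraries, 36.1, 31.4 and 49.8 in the WT anti-PD-1 libraries and 20.2, 17.5 and 14.7 in the WT PBS libraries. WT PBS stood apart below the other 9 libraries, which overlapped. Its interaction, -1.33 ± 0.28, adjusted p = 0.0403, was called in 2 of the 12 leave-one-out fits. With anti-PD-1 the response was -0.23 ± 0.20 in KO and 1.11 ± 0.20 in WT.

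In a second set the KO response was negative and the WT response positive or near 0. Phlda1, a pleckstrin-homology protein induced by growth factor signalling, had 7.92, 9.86 and 9.49 FPKM in the KO anti-PD-1 libraries, 12.5, 13.1 and 15.9 in the KO PBS libraries, 13.98, 18.04 and 19.2 in the WT anti-PD-1 libraries and 10.7, 9.41 and 11.5 in the WT PBS libraries. KO PBS and WT anti-PD-1 were the higher groups and overlapped, with an interaction of -1.19 ± 0.19, adjusted p = 0.0195 that was called in all 12 leave-one-out fits. Dusp8, a phosphatase of MAP kinases, had -1.04 ± 0.16, adjusted p = 0.0181, and Lif, a cytokine of the IL-6 family, had -1.01 ± 0.17, adjusted p = 0.0246. Gap43, a growth-associated protein of neurons, had 1.18, 1.04 and 1.01 FPKM in the KO anti-PD-1 libraries, 2.8996, 2.97 and 4.31 in the KO PBS libraries, 5.11, 4.57 and 7.88 in the WT anti-PD-1 libraries and 3.46, 5.39 and 3.78 in the WT PBS libraries, and KO anti-PD-1 lay below the rest, for an interaction of -1.45 ± 0.27, adjusted p = 0.0308. The axon guidance genes Sema3a and Epha7 had -1.02 ± 0.20, adjusted p = 0.0329 and -1.10 ± 0.24, adjusted p = 0.0459, and Wnt5a, a ligand of non-canonical Wnt signalling, had 3.33, 3.79 and 3.62 FPKM in the KO anti-PD-1 libraries, 5.07, 8.73 and 7.91 in the KO PBS libraries, 16.5, 16.2 and 17.6 in the WT anti-PD-1 libraries and 16.4, 15.9 and 16.2 in the WT PBS libraries. The WT groups overlapped far above both KO groups, and the interaction of Wnt5a, -0.87 ± 0.20, adjusted p = 0.0482, was called in 1 of the 12 leave-one-out fits.

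Other large negative interactions were those of Pdf, a mitochondrial peptide deformylase (-1.07 ± 0.16, adjusted p = 0.0181), the histone genes Hist1h4n (-1.22 ± 0.24, adjusted p = 0.0332) and Hist1h3h (-1.06 ± 0.23, adjusted p = 0.0434), which have many near copies, and the microRNA gene Mir24-2. Mir24-2 had 0.668, 0.751 and 0.769 FPKM in the KO anti-PD-1 libraries, 0.876, 1.02 and 1.38 in the KO PBS libraries, 1.14, 1.22 and 1.44 in the WT anti-PD-1 libraries and 0.488, 0.0238 and 0.0185 in the WT PBS libraries, all low values, and 2 of the 3 WT PBS libraries were close to 0. Its interaction was -1.23 ± 0.23, adjusted p = 0.0308. The value belongs to the hairpin's gene at chr8:84208815-84208921 and not to a mature microRNA, and it may include reads of a longer transcript. The mature arms, from RefSeq GRCm38.p6, are shown to say which microRNAs the gene encodes, with the seed (bases 2 to 8) in capitals.
mmu-miR-24-3p: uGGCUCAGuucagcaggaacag
mmu-miR-24-2-5p: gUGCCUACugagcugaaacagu

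Hypoxia and glycolysis genes leaned the other way from the immune genes. Of 25 tested, 23 had negative interactions and 2 positive, beside 6328 positive among all 14209 tested genes. The median was -0.46, and Pfkl alone was called, lower, beside 0.626% of all tested genes. Pfkl, a phosphofructokinase subunit, had 22.2, 17.5 and 20.005 FPKM in the KO anti-PD-1 libraries, 25.3, 29.3 and 32.03 in the KO PBS libraries, 23.7, 26.7 and 28.9 in the WT anti-PD-1 libraries and 19.96, 20.8 and 24.4 in the WT PBS libraries. KO PBS was the highest group, overlapping WT anti-PD-1, and the interaction was -0.79 ± 0.17, adjusted p = 0.0387. The glucose transporter gene Slc2a1 had 76.8, 49.03 and 70.4 FPKM in the KO anti-PD-1 libraries, 87.98, 108 and 119 in the KO PBS libraries, 45.9, 58.4 and 63.1 in the WT anti-PD-1 libraries and 37.5, 39.7 and 49.5 in the WT PBS libraries and just missed the threshold (-1.08 ± 0.26, adjusted p = 0.0551). The list's summed FPKM was 2261 to 3055 in KO anti-PD-1, 3190.3 to 3531 in KO PBS, 2275 to 2849 in WT anti-PD-1 and 2233 to 2506 in WT PBS libraries. The hypoxia response core ACGTG was searched on either strand in the promoter windows. It was in 37.1% of the 70 windows of 54 genes called lower, 21.6% of those of genes called higher and 25.4% of all. The window of Pfkl held 0 matches, and the shares were not tested. Genes of the integrated stress response and protein folding had 0 of 24 called and a median of -0.33.

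In the pathway in which CHK2 acts, none of 30 DNA damage checkpoint and repair genes was called (median -0.18), including Atm, the kinase that activates CHK2 (-0.26 ± 0.21, adjusted p = 0.532). Of 20 p53 target genes 2 were called, beside 2.44% of all tested genes, and both were lower: Phlda3, an inhibitor of AKT, with 44.3, 49.8 and 39.1 FPKM in the KO anti-PD-1 libraries, 52.6, 56.5 and 52.98 in the KO PBS libraries, 36.6, 33.2 and 32.7 in the WT anti-PD-1 libraries and 29.95, 25.998 and 26.1 in the WT PBS libraries (-0.59 ± 0.13, adjusted p = 0.0434), and the death receptor gene Tnfrsf10b (-0.55 ± 0.10, adjusted p = 0.0314). Phlda3 was called in 1 and Tnfrsf10b in 2 of the 12 leave-one-out fits. Phlda3 was higher in all 6 KO libraries than in all 6 WT libraries. The list's median was 0.04, and Cdkn1a (p21), the classical arrest gene, had 24.7, 23.1 and 31.7 FPKM in the KO anti-PD-1 libraries, 26.8, 28.9 and 23.8 in the KO PBS libraries, 12.4, 15.7 and 15.4 in the WT anti-PD-1 libraries and 10.3, 8.91 and 10.8 in the WT PBS libraries. It was likewise higher in all 6 KO than in all 6 WT libraries, with an interaction of -0.50 ± 0.18, adjusted p = 0.163. Of DNA replication genes 0 of 24 and of mitosis genes 0 of 23 were called, with medians of -0.11 and -0.12, and the proliferation marker Mki67 had -0.34 ± 0.19, adjusted p = 0.353.

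Of 282 tested small structural RNA genes 6 were called lower and 0 higher, and their median was -0.22. Over all 14209 tested genes 0.626% were called lower and 1.81% higher. The genes of this paragraph were chosen after their values were seen. Gm47299, which is not in that list and had the largest negative interaction of all tested genes, is annotated as a microRNA at chr12:69361179-69361258 and shares 77 of its 80 bases with the 7SL gene Rn7s2 on the same strand. It had 0.14, 0.122 and 0.1 FPKM in the KO anti-PD-1 libraries, 100.2, 103 and 101 in the KO PBS libraries, 0.104, 0.91 and 2.42 in the WT anti-PD-1 libraries and 0.126, 0.125 and 0.742 in the WT PBS libraries. The level was about 100 FPKM in KO PBS and under 3 in the other 9 libraries, an interaction of -7.08 ± 0.45, adjusted p = 0.000113. The gene n-R5-8s1, of a ribosomal RNA, had 10.3, 4.85 and 5.24 FPKM in the KO anti-PD-1 libraries, 72.6, 60.3 and 71.04 in the KO PBS libraries, 8.25, 4.36 and 7.32 in the WT anti-PD-1 libraries and 6.303, 4.14 and 8.604 in the WT PBS libraries. All 3 KO PBS libraries stood apart above, for -3.27 ± 0.41, adjusted p = 0.00872. Rn7s1 (-3.19 ± 0.70, adjusted p = 0.0439), Rn7s6 (-3.41 ± 0.48, adjusted p = 0.0134) and the Y RNA gene Rny1 (-1.92 ± 0.43, adjusted p = 0.0459) were high in the same 3 libraries. Rn7s1 and Rny1 were each called in 2 of the 12 leave-one-out fits and Rn7s6 in all 12. Such genes have many near copies, so their values are uncertain. The summed FPKM of the small RNA list was 1432 to 1634 in KO anti-PD-1, 1802 to 1929.7 in KO PBS, 1383 to 1526 in WT anti-PD-1 and 1238 to 1286 in WT PBS libraries. KO PBS was the group with the highest small RNA sums, and its 3 libraries also had the lowest summed FPKM of the T cell receptor, CD8, NK, checkpoint, interferon-gamma response and MHC class II lists; the part of RNA quality in the interaction was not tested. When only protein-coding genes were kept and their sums made equal, 297 of the 313 called genes still tested were called.

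Markers of tissue around the tumour varied between libraries of a group. Skeletal muscle genes summed to 614 FPKM in KO anti-PD-1 replicate 2, 405 in WT anti-PD-1 replicate 2 and 159 in KO PBS replicate 1, against 3.41 to 102 in the other 9. Adipocyte genes were highest in the same 3 libraries, at 125, 115 and 61.6 FPKM. None of 12 muscle and none of 6 adipocyte genes was called. Without KO anti-PD-1 replicate 2 and WT anti-PD-1 replicate 2 together, an alternative chosen after seeing the data, 17 genes were called, 9 higher and 8 lower, and all 343 of the called genes that were tested kept their sign. Of fibroblast and matrix genes 0 of 20 and of endothelial genes 0 of 14 were called, with medians of 0.35 and 0.59. The melanocyte gene Tyrp1 was at 0 in all 12 libraries.

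The same contrast in B16 tumours, B16 being a melanoma line, gave positive medians for the immune lists too, but the groups behind them differed. In MC38 the summed FPKM of the CD8 and cytotoxic list was 14.9 to 29.0 in KO PBS and 88.2 to 131 in the other groups. In B16 the sum was 16.8 to 79.6 in KO anti-PD-1, 4.21 to 7.73 in KO PBS, 4.35 to 23.3 in WT anti-PD-1 and 5.51 to 9.69 in WT PBS. There KO anti-PD-1 had the highest mean and KO PBS overlapped WT PBS. In a fit of all 24 libraries, the median interaction of CD8 and cytotoxic genes was 1.75 in MC38 and 1.14 in B16, and that of MHC class II genes 1.79 in MC38 and 2.23 in B16. For NK cell receptors the medians were 1.40 in MC38 and 0.41 in B16. The interaction differed between lines for 1848 of 15655 genes (11.8%), 1136 of them higher in MC38 and 712 lower. None of the tested members of the T cell receptor, CD8, checkpoint, NK, MHC class I, MHC class II, macrophage or complement lists was among them, which does not show that the lines respond alike. The B16 KO anti-PD-1 libraries stand apart, with FPKM sums of 375193 to 398474 against 319980 to 344059 in the other 9 B16 libraries, and with skeletal muscle genes at 11.4 to 2410 FPKM against at most 3.17.

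Genes called lower in MC38 gave most of the differences among named genes. The interaction of Gap43 was -1.45 in MC38 and 0.24 in B16 (difference -1.69 ± 0.34, adjusted p = 0.00402). For Lif it was -1.01 in MC38 and 0.45 in B16 (difference -1.46 ± 0.31, adjusted p = 0.00576), and for Hsph1 -1.33 in MC38 and -0.17 in B16 (difference -1.16 ± 0.37, adjusted p = 0.0464). Igf2 differed the other way, at 2.65 in MC38 and 0.02 in B16 (difference 2.63 ± 0.59, adjusted p = 0.00861). Each of these was nearly flat or of opposite sign in B16. The line difference uses the MC38 libraries again, so it is no independent test of the MC38 interaction.

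**Figure D5:**
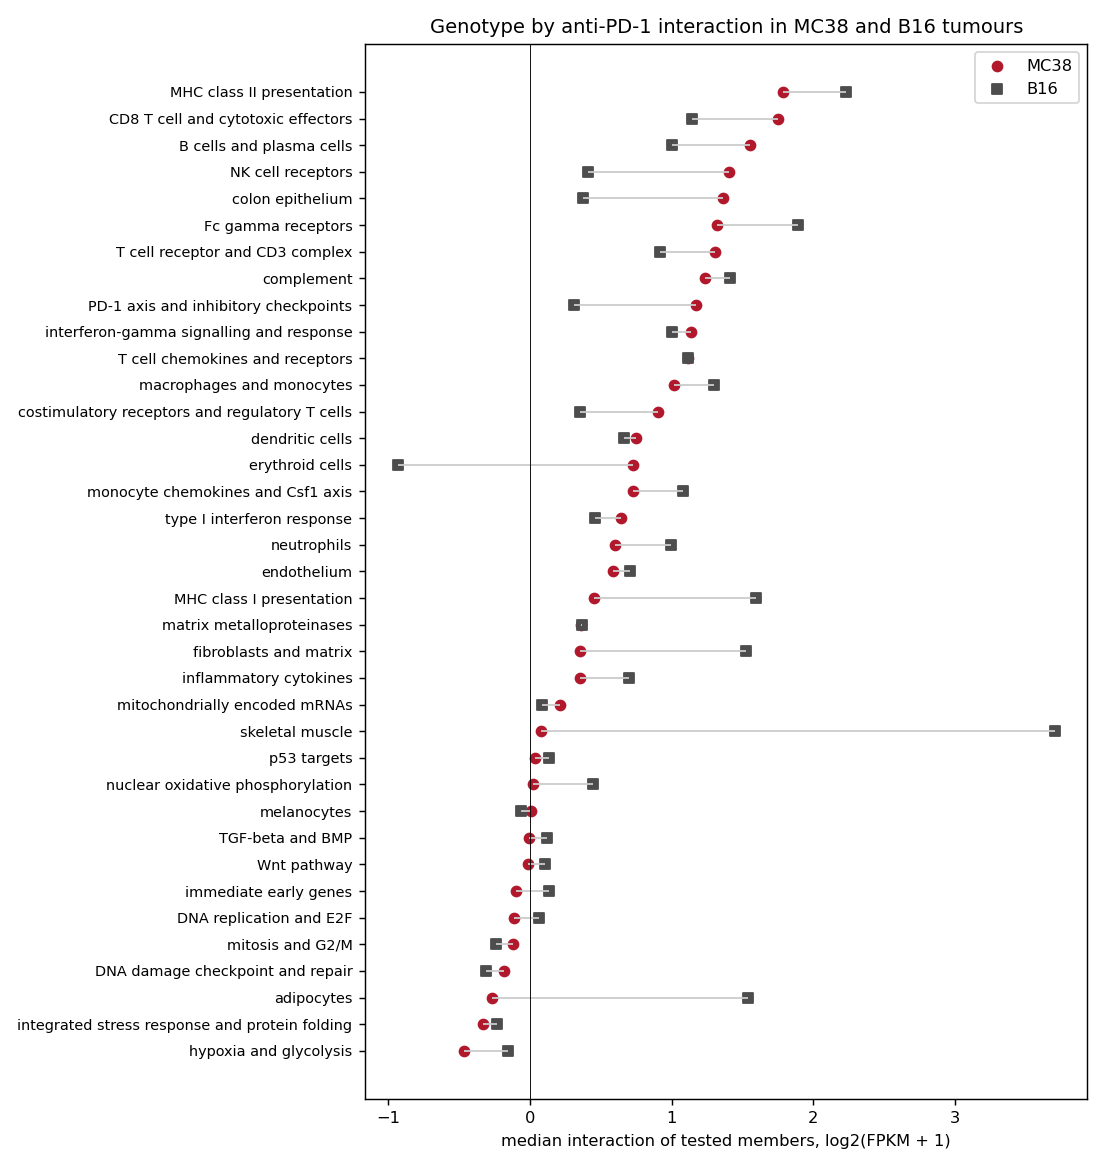
Points give the median interaction of each gene list's tested members in MC38 (circles) and B16 (squares), on log2(FPKM + 1), from 1 fit of all 24 libraries. The T cell, MHC and macrophage lists lie right of 0 in both lines, while skeletal muscle is near 0 in MC38, at 0.08, and at 3.70 in B16.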

How the data were processed

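Total RNA of tumour tissue was extracted with Trizol and made into standard Illumina libraries, per the labels' protocols. Per the submitters' processing notes, the tools named are STAR 2.5, Cuffnorm, DESeq and FastQC, without their roles, and the build is mm10. The deposited values were taken as FPKM from their sums and low-value steps, 1 column per library for 55335 genes; the authors' normalization and the strand are not given in the sources used here. Of the gene IDs 55154 matched the GENCODE annotation of that build and 181 did not.

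Values were analysed as log2(FPKM + 1), the pseudocount being 1, in R 4.3.3 with limma 3.58.1. A fold on this scale understates the change of low genes. A mean per group was fitted to the 12 MC38 libraries with a mean-variance trend, and 2-sided moderated p-values were given a Benjamini-Hochberg adjustment over the 14209 genes that reached 1 FPKM in 3 or more libraries; called means an adjusted p under 0.05. FPKM are not counts, so no count test was run. Errors after ± are SE for differences. Groups came from the labels' condition field.

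Named genes were Chek2, a panel of 8 immune genes, the 12 largest called interactions in each direction among properly named genes with a group mean of at least 1 FPKM, the 2 called members of each list with the smallest p, and the 4 largest called line differences in each direction; some genes of this rule are not reported here, other list members are named beside them, and the Gm and small RNA genes outside this rule were picked with their values in view. The members and gene lists were chosen with earlier results of these data known. Lists are described by counts and medians, with no test. Steps were tested on simulated data, in which 14 of 151 calls were false. Of simulated interactions of 1.5-fold 24 of 67 were called, of 2-fold 49 of 67 and of 4-fold 64 of 66. Pseudocounts, filters, scalings, variance models, a fit of all 24 libraries and the leaving out of libraries were tried as alternatives.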

Additional observations from a re-analysis of the deposited data

Results flagged for a closer look

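The test of the difference between lines, in the fit of all 24 libraries, marked 24 named genes, and the values that follow are the MC38 interaction minus the B16 interaction on log2(FPKM + 1). Genes called lower for the MC38 interaction had negative differences: Gap43 -1.69, Pdf -1.90, Hist1h4n -1.58, Hist1h3h -1.48, Lif -1.46, Mir24-2 -1.26, Phlda1 -1.23, Hsph1 -1.16, Sema3a -1.01, Wnt5a -0.99, Epha7 -0.90 and Phlda3 -0.89. The small RNA genes Gm24407 and Gm24601 had -3.71 and -3.56. Of genes called higher, Igf2 had 2.63 and Cdh1 1.16.

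The other 8 were named for their line difference alone. Higher in MC38 were Qser1 at 3.60, Tlr4 at 3.46, Zbed6 at 3.09 and the copper transporter gene Atp7a at 2.90. Lower in MC38 were Guca1a at -3.24, the protease inhibitor gene Timp1 at -2.87, Rbp7 at -2.67 and the small heat-shock protein gene Cryab at -2.66. For Qser1, Zbed6, Atp7a and Timp1 the MC38 interaction was -0.20, -0.41, 0.02 and -0.21, none of them called, and the B16 interaction made up most of the difference. The same held for Guca1a and Rbp7, which were too low in MC38 to be tested there. In the fit of all 24 libraries their interactions were 0.20 and -0.05 in MC38 and 3.44 and 2.62 in B16.

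Tlr4, the receptor of bacterial lipopolysaccharide, had 9.01, 9.66 and 10.04 FPKM in the KO anti-PD-1 libraries, 2.32, 2.06 and 1.88 in the KO PBS libraries, 1.77, 1.64 and 9.84 in the WT anti-PD-1 libraries and 9.44, 1.32 and 1.89 in the WT PBS libraries. Its values lay either at 1.32 to 2.32 FPKM or at 9.01 FPKM and above, with nothing between, and the WT groups held both kinds. Its MC38 interaction was 1.72 ± 0.82, adjusted p = 0.282.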

How the results depend on the processing

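The 346 calls depended on the libraries more than on the scale. With pseudocounts of 0.1 or 0.5, a filter of 1 FPKM in 6 libraries, quantile or median ratio scaling, protein-coding genes alone, no variance trend or robust variance, 305 to 426 genes were called. Without a filter, over 33977 genes, 45 were called (31 higher, 14 lower). The fit of all 24 libraries called 218 (143 higher), and array weights called 651 (459 higher, 192 lower). Without WT anti-PD-1 replicates 2 and 3, whose titles lack the letter of the others, 12 were called (6 higher, 6 lower), with the lone library of that group assumed to vary like the rest, and without KO anti-PD-1 replicate 2 and WT anti-PD-1 replicate 2 17 were called (9 higher, 8 lower). Leaving out 1 library gave 48 to 725 calls, 36 to 558 of them higher and 12 to 167 lower. All alternatives kept the sign of every called gene they tested, and shifted the median of all genes by less than 0.1. They reuse libraries from which these genes were chosen, so the kept signs are no independent test. The difference between lines was called for 1294 to 2101 genes. No paired analysis was possible because replicate numbers were given in accession order and do not link libraries across groups. Depth per library is an estimate, and genes under 1 FPKM, such as Foxp3, were not measured well enough to test.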

Other observations

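The gene families that follow lie outside the lists. They were picked after their values were seen, so they are described and not tested as groups. Beside their counts, 1.81% of all tested genes were called higher and 0.626% lower. Of 6 tested Gimap genes, small GTPases of lymphocytes, 2 were called higher, and the family's median interaction was 1.37. Gimap3 had 3.74, 6.96 and 4.07 FPKM in the KO anti-PD-1 libraries, 0.951, 0.744 and 1.05 in the KO PBS libraries, 5.71, 4.27 and 3.95 in the WT anti-PD-1 libraries and 6.57, 7.25 and 4.37 in the WT PBS libraries. KO PBS was the lowest group and the interaction was 1.91 ± 0.30, adjusted p = 0.0195. Of the 5 subunits of the phagocyte NADPH oxidase, which makes superoxide, Cyba (0.90 ± 0.17, adjusted p = 0.0308) and Ncf4 (1.44 ± 0.23, adjusted p = 0.0195) were called higher, and the 5 interactions ran from 0.83 to 1.44. Bcl2a1a and Bcl2a1b, near copies of a survival gene of leukocytes, had 1.40 and 1.45.

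On the lower side, 2 of the 3 Kdelr genes, whose products return chaperones to the endoplasmic reticulum, were called: Kdelr2 had 70.5, 71.9 and 74.8 FPKM in the KO anti-PD-1 libraries, 87.9, 97.2 and 102 in the KO PBS libraries, 75.8, 79.99 and 81.8 in the WT anti-PD-1 libraries and 74.5, 79.7 and 77.5 in the WT PBS libraries and Kdelr3 had an interaction of -0.66 ± 0.12, adjusted p = 0.0289. The 3 KO PBS libraries were the highest for Kdelr2, at an interaction of -0.43 ± 0.09, adjusted p = 0.0409. Kdelr2 was called in 1 and Kdelr3 in 4 of the 12 leave-one-out fits. Of 69 tested heat-shock and co-chaperone genes 2 were called, beside 2.44% of all tested genes, and the family's median was -0.16. The 2 were Hsph1 and the mitochondrial chaperonin gene Hspd1 (-0.43 ± 0.10, adjusted p = 0.0482), both lower. Hspd1 was called in 0 of the 12 leave-one-out fits.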
